A study of Mus musculus with 16 samples.

Results

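Small nucleolar RNAs (snoRNAs), small Cajal body RNAs (scaRNAs), microRNAs and the RNAs that carry them were followed in mouse hind limb skin after exposure to the space environment. They were taken by symbol, as every gene of the count table whose name began with Snora, Snord, Scarna, Mirlet, Snhg or Mir and a digit, and no measured value entered that choice. These were 153 of the 14858 genes of the table. They comprised 25 box C/D snoRNAs, 18 box H/ACA snoRNAs, 6 scaRNAs, 86 microRNAs and 14 small nucleolar RNA host genes (Snhg). The other 4 were named as host RNAs of microRNAs, namely Mir17hg, Mir22hg, Mir99ahg and Mir143hg. The Snhg genes and these hosts, 18 together, are long RNAs, so the set is not made of small RNAs alone. The recorded span of Mir17hg begins past Mir18, and that of Mir99ahg ends before Mir99a and Mirlet7c-1. Neither span covers these hairpins.

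The mice were female BALB/cAnNTac animals, 10 to 16 weeks of age, and total RNA of femoral (hind limb) skin was sequenced after capture with baits for mouse exons, with 1 library per mouse. Ground controls (n = 6) stayed on Earth in flight-type habitats. Mice with exposure to space environment (ESE, n = 10) were flown, and the labels part them by the 5-methylcytosine of their DNA into a high group, which is the non-responder ESE cohort (n = 6), and a low group, which is the responder ESE cohort (n = 4). In the ISS arm, ESE mice were killed in orbit after 22 to 23 days, and in the live animal return (LAR) arm after 40 days in space and 2 days back on the ground. Each arm gave 5 ESE mice and 3 ground controls, 2 of the ESE mice of each arm being responders. The arm of a library was taken from the study's supplementary list of libraries, since the sample labels do not give it.

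Libraries held 4159342 to 22593931 counts, and the ribosomal RNA precursor Rn45s took 12.9% to 51.9% of them. The RNA was broken in every sample, with an RNA integrity number (RIN, high for intact RNA) of 1.8 to 2.7 in ground controls, 1.2 to 1.9 in non-responders and 1.5 to 2.1 in responders. Ground control replicates 3 and 4 and non-responder replicate 1 stood apart, with 39.6% to 57.3% ribosomal reads against 13.3% to 29.5% in the other 13 libraries, and with the 3 lowest totals. They are called the ribosome-rich libraries here, and results are given with and without them. The 9 skin markers (keratins, loricrin, collagens and decorin) had counts in every library, summed to 2842 to 16625 CPM (counts scaled to the library by TMM). The 10 skeletal muscle markers summed to 8.9 to 48259 CPM in ground controls, 8.0 to 3989 CPM in non-responders and 406.5 to 2305 CPM in responders, with the highest sum in ground control replicate 6, and 3 of the 10 were at 0 in some library. Of 6 liver markers 4 were in the table, and they summed to 1663 CPM in responder replicate 1 and to at most 85.6 CPM in any other library, 3 of the 4 being at 0 in some library. In ESE mice against ground controls all 10 muscle markers had the lower mean, 7 at an unadjusted p under 0.05, with a median log2 fold change of -3.64, and none passed the test. The part of these tissues in the results below was not tested. The numbers in the library names run group by group, and what they mark is not given in the sources used here.

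SnoRNAs are guides. A box C/D snoRNA pairs with ribosomal RNA and places a methyl group on the ribose of a chosen base, and a box H/ACA snoRNA turns a chosen uridine into pseudouridine. ScaRNAs do the same for the small nuclear RNAs of the spliceosome, in the Cajal body. In mammals most of them are cut out of the introns of other genes, many of these genes of ribosomal proteins, and an Snhg gene is a host whose spliced RNA is mostly noncoding. MicroRNAs are cut from hairpins in longer transcripts by Drosha and Dicer, and the mature strand finds its targets by its seed, bases 2 to 8. A count here is a read over the recorded span of such a gene. It does not tell the mature small RNA from the hairpin, the unspliced intron around it or a fragment of either.

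The mature strands of some of the microRNA genes are shown with the seed in capitals (RefSeq, GRCm38.p6). They are given as background, since the counts do not measure these strands by themselves. Mir93 lies in an intron of Mcm7 and Mir6993 in an intron of Fads1. Mir1898 lies in Zfr and Mir5123 in B4galt1. Mir6236 is shown because it took most of the members' counts, and Mir429 because it shares a seed with Mir200b.
miR-93-5p: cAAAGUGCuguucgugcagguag
miR-93-3p: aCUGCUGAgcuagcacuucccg
miR-1898: aGGUCAAGguucacaggggauc
miR-6993-5p: aGUGGGAGaaacgggugucuguc
miR-6993-3p: cUUGCGUUuguuuccucacag
miR-5123: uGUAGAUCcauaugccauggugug
miR-6236: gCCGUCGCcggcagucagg
miR-429-3p: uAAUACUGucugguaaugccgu
miR-200b-3p: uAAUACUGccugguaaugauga
miR-203-3p: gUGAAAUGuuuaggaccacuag
let-7c-5p: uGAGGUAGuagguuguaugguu
let-7e-5p: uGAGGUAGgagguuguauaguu
let-7f-5p: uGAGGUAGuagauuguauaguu

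Of the 86 microRNA genes 80 had a mature sequence in that table, with 134 mature strands in all, and only 3 seeds were held by more than 1 member. These were GAGGUAG, shared by the 3 let-7 genes shown, AAUACUG, shared by Mir200b and Mir429, and AUCUUAC, shared by the other strands of Mir200a and Mir200b. Mir93 lies on chromosome 5 at chr5:138165523-138165610, minus strand. Mir6236 lies on chromosome 9 at chr9:110281287-110281409, plus strand, in no other gene of the table. Its sequence was not compared with that of ribosomal RNA here.

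The snoRNAs on which the results turn are shown next (GENCODE vM21 transcripts, GRCm38, as DNA). Capitals mark TGATGA in the first 25 bases and CTGA in the last 20 of a box C/D snoRNA, the textbook C and D boxes, and ACA in the last 10 bases of a box H/ACA snoRNA. Snord15a (chr7:99482785-99482932, minus strand) and Snord15b (chr7:99479563-99479707, minus strand) sit in separate introns of Rps3, a protein of the small ribosomal subunit. Snord37 (chr10:81178950-81179013, plus strand) sits in Eef2, the translation elongation factor. Snora43 (chr2:26637847-26637985, minus strand) sits in Snhg7, and Snora44 (chr4:132309941-132310069, plus strand) in Snhg12.
Snord15a: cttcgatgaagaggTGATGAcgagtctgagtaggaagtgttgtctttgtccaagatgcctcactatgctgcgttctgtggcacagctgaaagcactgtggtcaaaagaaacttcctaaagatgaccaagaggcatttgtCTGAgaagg
Snord15b: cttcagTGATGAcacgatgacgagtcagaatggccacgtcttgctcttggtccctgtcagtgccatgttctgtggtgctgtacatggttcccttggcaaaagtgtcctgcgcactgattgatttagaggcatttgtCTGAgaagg
Snord37: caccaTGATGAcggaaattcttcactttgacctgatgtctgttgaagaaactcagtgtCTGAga
Snora43: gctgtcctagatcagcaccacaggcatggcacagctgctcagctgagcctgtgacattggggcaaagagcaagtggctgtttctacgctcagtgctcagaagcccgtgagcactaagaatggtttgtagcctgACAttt
Snora44: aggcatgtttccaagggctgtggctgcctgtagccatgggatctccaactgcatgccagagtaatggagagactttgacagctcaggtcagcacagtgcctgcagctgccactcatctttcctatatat

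TGATGA was found in the first 25 bases of 16 of 24 box C/D snoRNAs and of 0 of 18 box H/ACA snoRNAs, and CTGA in the last 20 bases of 23 of 24 and 3 of 18. ACA was found in the last 10 bases of 16 of 18 box H/ACA snoRNAs and of 3 of 24 box C/D snoRNAs, on the transcribed strand alone. Snora44 held no ACA there in this transcript. Snord15a and Snord15b were identical at 107 of 162 aligned columns (66.0%), so they share the box motifs and differ through much of their length.

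Most of the members were thin in these libraries. Of the 153 genes, 25 had a mean of at least 100 counts per library, 89 had at least 10, 64 had fewer than 10, and 70 had a count in every library. The ribosome-rich libraries had a count for 104 to 115 members and the other 13 libraries for 143 to 153. Together the members took 0.286% to 1.71% of all counts of a library, and Mir6236 alone made up 66.1% to 96.1% of their counts. Per kilobase of recorded length, Mir6236 had 59300 CPM per kb, averaged over the 16 libraries. The next were Snord15b with 841 CPM per kb, Scarna2 with 783, Snord15a with 621 and Snord17 with 472. The record of Scarna2, a scaRNA with its own transcription unit, spans 61 bases only. Of the 153 members 95 were shorter than a read of 100 bases, and a read that overlaps such a gene can begin outside it, so this scale favours short genes. With each length grown by a read less 1 base, a scale added after the data were seen, Mir6236 had 32855 CPM per kb and the order of the next was Snord15b, Snord15a, Snord17 and Scarna2.

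Few members made up each class. Snord15a, Snord15b and Snord17, an snoRNA in the sorting nexin gene Snx5, gave 90.5% of the summed CPM of the 25 box C/D snoRNAs. Scarna13, Scarna2 and Scarna6 gave 93.3% of the scaRNA sum. The box H/ACA class was spread more evenly, with 55.8% from Snora74a, Snora78 and Snora31, and Snhg17, Snhg5 and Snhg4 gave 50.03% of the Snhg sum. Without Mir6236, the 3 highest microRNAs (Mir6516, Mir3109 and Mir5123) gave 24.4% of the microRNA sum.

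Mir6236 followed the ribosomal reads. Its raw counts were 35638 to 90622 in the 16 libraries, a range of 2.54 times, while total counts ranged over 5.43 times. On the scale of CPM it reached 16612, 21238 and 25413 in ground control replicates 3 and 4 and non-responder replicate 1, and 1255 to 6715 in the other 13 libraries, so the ribosome-rich libraries lay apart from every other. By group it was 2830, 5349 and 21238 CPM (lowest, median, highest) in ground controls and 2102, 4400 and 25413 CPM in non-responders. The 4 responders had 4344, 6715, 4289 and 1255 CPM, inside the range of the other groups but for replicate 4. ESE mice against ground controls gave -0.59 on the log2 scale (SE 0.59, unadjusted p = 0.332, edgeR).

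Within the other 13 libraries the level of Mir6236 rose with that of Rn45s. On log2 scales Pearson's r was 0.896 (permutation p = 0.0002, adjusted over 4 relations 0.0004) and Spearman's rho 0.736 (permutation p = 0.006, adjusted 0.012), and r was 0.737 without the 2 libraries farthest from the median of Rn45s. With the ribosomal share of raw reads r was 0.892 (permutation p = 0.00018, adjusted 0.0004) and rho 0.852 (permutation p = 0.00048, adjusted 0.00192), and r was 0.902 without the 2 farthest libraries. RIN gave r = 0.37 (permutation p = 0.209) and rho = 0.28 (permutation p = 0.347), and the share of fragments over 200 bases (DV200) gave r = -0.10 (permutation p = 0.739) and rho = -0.35 (permutation p = 0.24), and neither passed. Mir6236 and Rn45s share the library total of each point. Against 1000 counts of Rn45s, Mir6236 had 10.4 to 21.2 counts in the 13 libraries and 25.8 to 31.6 in the ribosome-rich libraries.

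**Figure D1:**
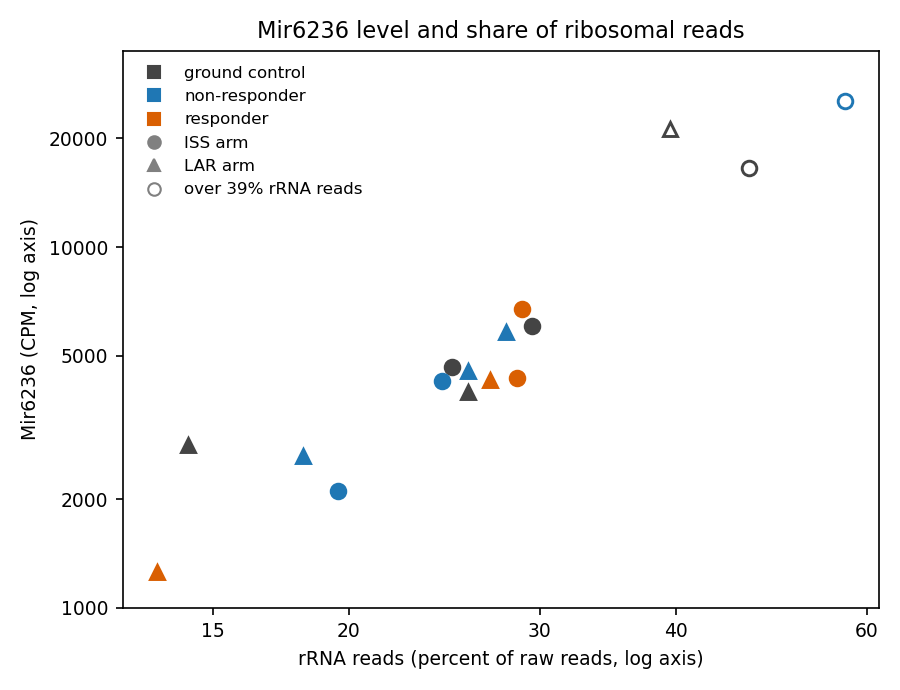
Level of Mir6236 (CPM, log axis) against the share of raw reads from ribosomal RNA (percent, log axis), 1 point per library, with colour for the group, shape for the arm and open symbols for the libraries with over 39% ribosomal reads. The 3 open symbols lie between 16612 and 25413 CPM, and the 13 filled ones between 1255 and 6715 CPM climb with the ribosomal share.

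Of the 25 members with a mean of at least 100 counts, 3 besides Mir6236 were higher in each ribosome-rich library than in every other library, as were 178 of all 9340 genes of that depth (1.91%). Scarna6, a scaRNA in the autophagy gene Atg16l1, had 53.9 to 75.6 CPM in the ribosome-rich libraries and 13.8 to 40.5 CPM in the others. Snhg8 had 30.2 to 37.99 against 13.6 to 28.6 CPM, and Snora78 14.4 to 15.6 against 5.54 to 12.6 CPM. Of coding reads with a known strand, 90.4% to 97.5% had the same orientation to their gene in the 16 libraries. For intron reads that orientation held 25.2% to 35.7% in the ribosome-rich libraries and 49.7% to 77.5% in the others. The strand setting of the counting is not given. The part of intron reads of either strand in the level of Scarna6 was not tested. At the other end, Mir143hg, the host RNA of the smooth muscle microRNAs Mir143 and Mir145a, had a mean of 3.43 CPM in the ribosome-rich libraries and 10.2 CPM in the others, and Mir17hg had 8.75 and 22.8 CPM. The ranges of both overlapped.

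The summed level of each class overlapped between ground controls, non-responders and responders. The box C/D sum was 346 ± 210 CPM (SD, n = 6) in ground controls, 364 ± 182 CPM (SD, n = 6) in non-responders and 341 ± 223 CPM (SD, n = 4) in responders. It varied widely between animals of 1 group, from 131 to 744 CPM in ground controls, from 162 to 651 CPM in non-responders and from 97.4 to 626 CPM in responders. The box H/ACA sum was steadier, at 52.8 ± 17.9, 56.9 ± 4.63 and 50.3 ± 13.2 CPM in the same order. In bulk skin, fewer cells that make an RNA and less of it per cell cannot be told apart.

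The scaRNA sum was 158 ± 40.1 CPM (SD, n = 6) in ground controls, 203 ± 38.5 CPM (SD, n = 6) in non-responders and 168 ± 48.1 CPM (SD, n = 4) in responders. The Snhg sum was 167 ± 19.7, 200 ± 48.3 and 200 ± 65.6 CPM in the same order, with a tighter range in ground controls, 144 to 195 CPM, than in ESE mice, 143 to 269 CPM. The microRNA host RNAs summed to 50.1 ± 15.8, 56.3 ± 17.3 and 63.9 ± 17.1 CPM. The microRNAs without Mir6236 summed to 95.8 ± 24.2, 98.9 ± 11.9 and 100.5 ± 32.6 CPM. No test was run on these sums. Without the ribosome-rich libraries the ground control and non-responder means were 139 and 195 CPM for scaRNAs and 164 and 210 CPM for Snhg.

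**Figure D2:**
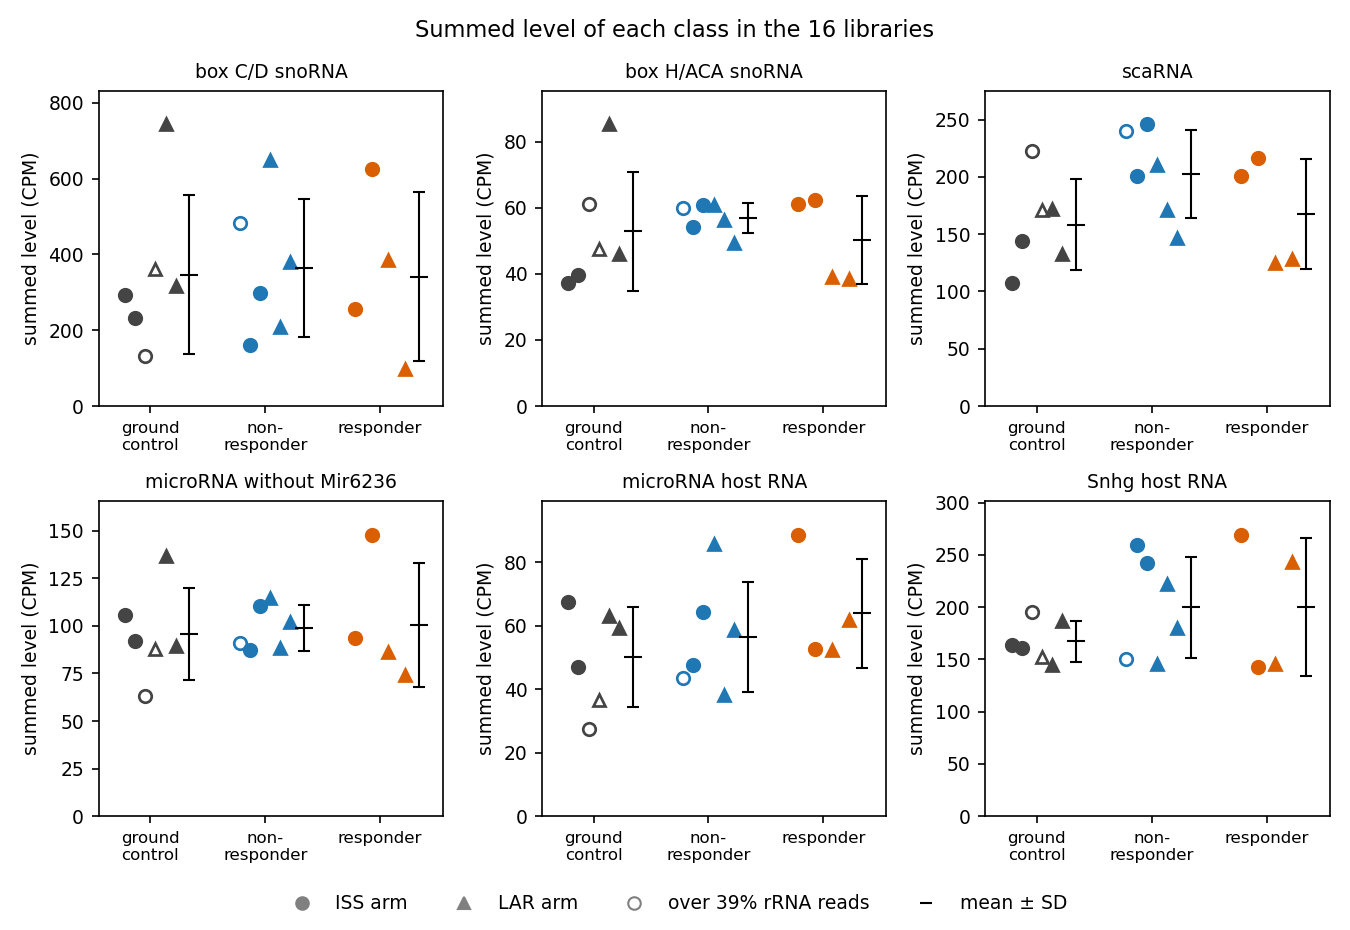
Summed level (CPM, linear axes from 0) of 6 classes in the 16 libraries by group, with circles for the ISS arm, triangles for the LAR arm, open symbols for the libraries with over 39% ribosomal reads, and bars for the mean ± SD of a group. Groups overlap in every panel, and the box C/D sums spread from 97.4 to 744 CPM.

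Between all ESE mice and the ground controls no member passed the test. Of the 153 members 84 had enough counts to be tested, and edgeR's quasi-likelihood test called 0 of them at an adjusted p under 0.05, with 0.624 as the smallest adjusted p. It called 0 of all 13577 genes tested (0%). DESeq2 and edgeR's likelihood ratio test also called 0 members, and 3 (0.0227%) and 13 (0.0958%) of all genes. At an unadjusted p under 0.05 stood 11 of the 84 members (13.1%), against 7.86% of all genes tested, 8 of the 11 with the higher mean in ESE mice and 3 with the lower. DESeq2 had 15 and the likelihood ratio test 14 members at that level. The median log2 fold change of the tested members was 0.05 and that of all genes tested -0.04.

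Of the 11 members at an unadjusted p under 0.05 in edgeR's quasi-likelihood test, 5 were microRNAs, which made up 34 of the 84 tested. Another 2 were Snhg RNAs, 2 box H/ACA snoRNAs, 1 a microRNA host RNA and 1 a scaRNA. Mir93, of the family of miR-17 by its seed, had 0.219, 0.663 and 1.11 CPM (lowest, median, highest) in ground controls and 0.745, 1.66 and 3.69 CPM in ESE mice. All 10 ESE mice lay above the median of the ground controls and 6 lay above the highest of them. Its log2 fold change was 1.51 (SE 0.45, unadjusted p = 0.00346, adjusted p = 0.624), on 37 counts in all ground controls and 326 in all ESE mice. Over 27 other fits it ran from 0.97 with RIN as a covariate to 1.90 without the ribosome-rich libraries. Mcm7, the DNA helicase subunit whose intron holds Mir93, had 0.36 (SE 0.22, adjusted p = 0.632).

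Mir1898 had 0, 0.755 and 1.65 CPM in ground controls and 0.372, 2.02 and 3.87 CPM in ESE mice, with 7 of the 10 ESE mice above the highest ground control. Its log2 fold change was 1.32 (SE 0.47, adjusted p = 0.624), with 2.03 in the ISS arm alone and 0.78 in the LAR arm alone. Mir6993 had 0, 0.159 and 0.388 CPM in ground controls and 0, 0.825 and 1.27 CPM in ESE mice, and 7 ESE mice lay above every ground control. These were thin counts, 12 over all ground controls and 123 over all ESE mice, for a log2 fold change of 1.90 (SE 0.73, adjusted p = 0.624). Its host Fads1, a fatty acid desaturase, had 1.34 (SE 0.46, adjusted p = 0.624). Mir5123 had 0.584, 4.56 and 5.54 CPM in ground controls and 2.61, 8.48 and 14.1 CPM in ESE mice, with 8 of 10 ESE mice above every ground control, and a log2 fold change of 1.01 (SE 0.42). Its host B4galt1, a galactosyltransferase, had -0.24 (SE 0.13, adjusted p = 0.624).

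Mir429, a member of the miR-200 family that restrains the transition of epithelial to mesenchymal cells, leaned the other way. It had 0.554, 1.24 and 2.58 CPM in ground controls and 0.0852, 0.769 and 1.11 CPM in ESE mice, all 10 below the median of the ground controls. Its log2 fold change was -0.93 (SE 0.43, adjusted p = 0.624), with -0.57 without ground control replicate 2 and -0.43 in the LAR arm alone. Mir200b, with the same seed, reached at most 1.39 CPM in any library, and Mir200a 2.33 CPM.

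Among the host RNAs, Mir22hg, the primary transcript of miR-22, had 11.3, 23.3 and 28.5 CPM in ground controls and 9.93, 14.3 and 22.7 CPM in ESE mice, again with all 10 below the ground control median. Its log2 fold change was -0.52 (SE 0.23, adjusted p = 0.624), with 0.06 in the ISS arm alone and -1.04 in the LAR arm alone. Snhg1 had 7.27, 12.2 and 15.2 CPM in ground controls and 8.42, 19.6 and 43.9 CPM in ESE mice, with 6 ESE mice above every ground control and a log2 fold change of 0.86 (SE 0.35). Snhg4 had 11.5, 18.5 and 26.6 CPM against 11.99, 32.6 and 49.1 CPM, and 0.73 (SE 0.33). ESE mice spread more than ground controls for both.

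Of the guide RNAs, Scarna13 had 27.4, 63.7 and 93.3 CPM in ground controls and 50.6, 85.8 and 145 CPM in ESE mice, with 4 ESE mice above every ground control. It was among the deeper members, with a mean of 1237 counts per library, and its log2 fold change was 0.67 (SE 0.27, adjusted p = 0.624). Snora43 had 0.511, 0.852 and 1.64 CPM against 0.595, 1.83 and 3.24 CPM, and a log2 fold change of 0.94 (SE 0.40). Snora44 had the lower mean in ESE mice, with 0.554, 0.992 and 3.88 CPM in ground controls against 0.0738, 0.485 and 1.49 CPM. The log2 fold change of Snora44 was -1.38 (SE 0.53, adjusted p = 0.624), with -0.78 without ground control replicate 5 and -0.25 in the ISS arm alone. Of the abundant box C/D snoRNAs, Snord15b had -0.02 (SE 0.47), Snord15a 0.56 (SE 0.45) and Snord17 -0.26 (SE 0.49), with errors too wide to show a small difference. Snord22, in Snhg1, had -0.69 (SE 0.34) in ESE mice and -0.87 (SE 0.45) in responders, against 0.86 for Snhg1 itself in ESE mice.

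**Figure D3:**
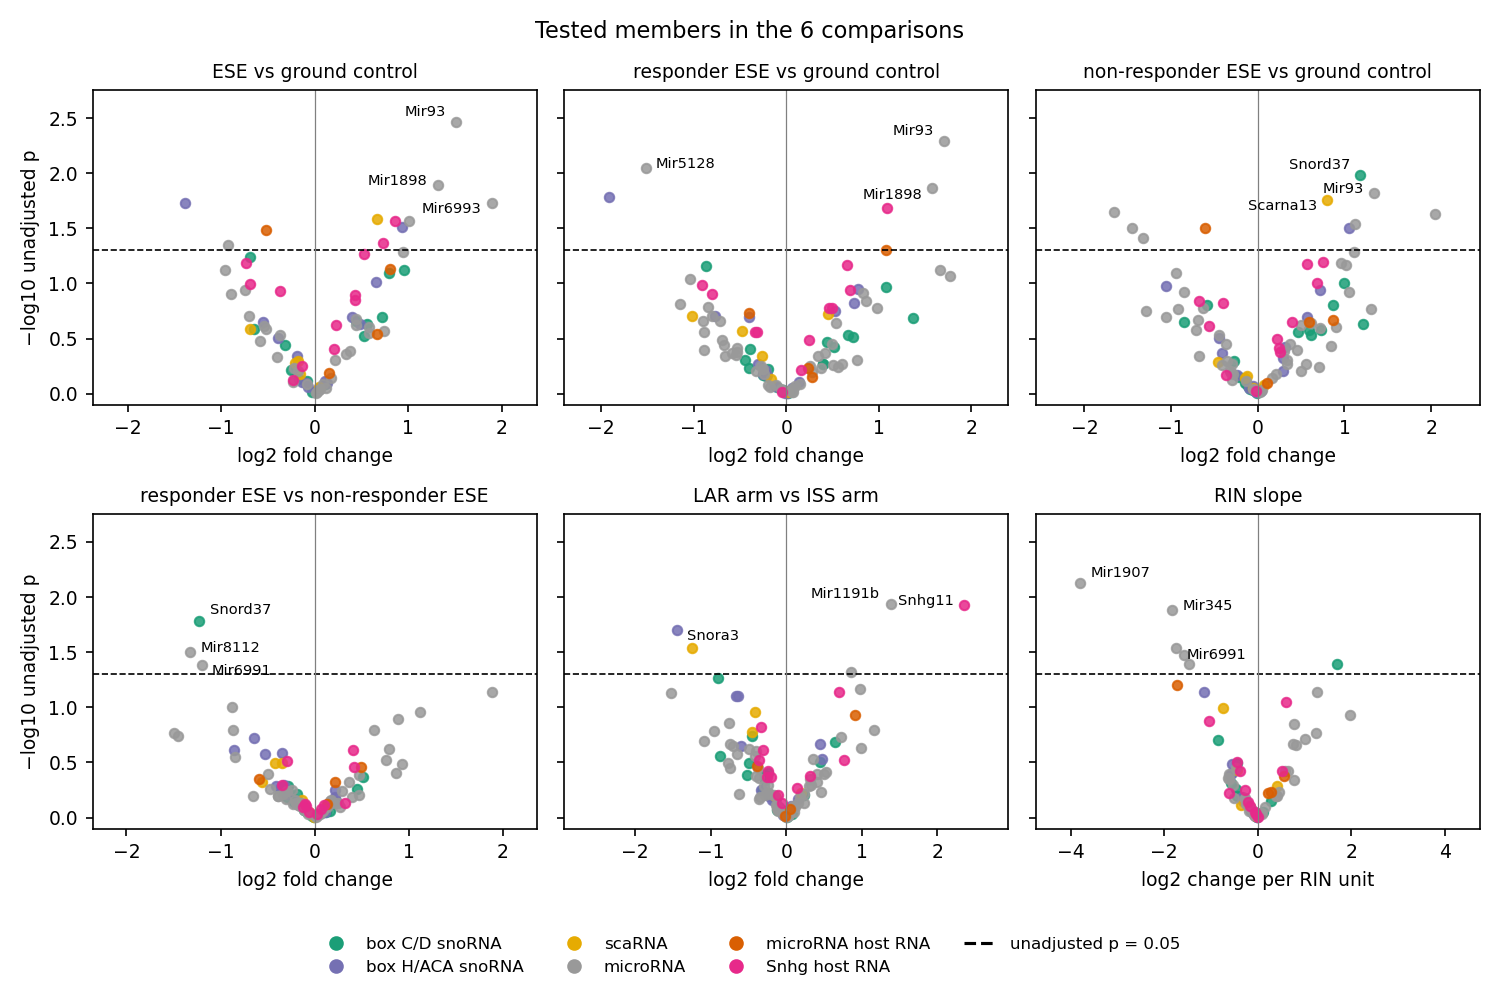
Tested members in 6 comparisons, with the log2 fold change (or log2 change per RIN unit) on the horizontal axis and -log10 of the unadjusted p of edgeR's quasi-likelihood test on the vertical axis, coloured by class, with the 3 members of smallest p named and a dashed line at an unadjusted p of 0.05. In no panel did a member pass after adjustment, and Mir93 stands highest for all ESE mice and for responders against the ground controls.

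In the responder ESE cohort, set against the ground controls in a fit of all 3 groups, edgeR called 0 of 105 tested members and 1 of 14107 genes (0.00709%). DESeq2 called 0 members and 0.145% of genes, and the likelihood ratio test 0 members and 0.149% of genes. At an unadjusted p under 0.05 stood 6 members (5.71%) against 3.42% of all genes, and 6 and 7 by the other tools. Mir93 was again first, with 3.69, 0.991, 0.891 and 2.83 CPM in the 4 responders, all above the ground control median of 0.663 CPM. Its log2 fold change was 1.71 (SE 0.53, adjusted p = 0.976). Mir17hg is named as the host RNA of the miR-17-92 cluster, whose seed family holds miR-93, though its recorded span begins past Mir18. Mir17hg had 53.4, 9.71, 20.04 and 33.4 CPM in responders and 4.69, 13.4 and 22.8 CPM in ground controls. Its log2 fold change was 1.08 (SE 0.51, adjusted p = 0.976). Responder replicate 2 lay below the ground control median of Mir17hg.

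Snora44 was below every ground control in all 4 responders, at 0.484, 0.297, 0.223 and 0.487 CPM, with a log2 fold change of -1.92 (SE 0.72, adjusted p = 0.976). The lowest ground control was replicate 3, a ribosome-rich library, where 0.554 CPM was 2 counts, so the full separation hangs on these. Responders held 30 counts of Snora44 in all. The share of all genes that separate in this way is not given here. Snhg1 had 43.9, 8.42, 12.99 and 33.7 CPM in responders and 1.09 (SE 0.42), with replicates 1 and 4 above every ground control and a log2 fold change of 0.67 without replicate 1. Mir5128 had -1.52 (SE 0.51), but its record is 4 short pieces spread over a gene on the other strand, Ubp1, and its reads are uncertain. Mir1896 had no count in any of the 4 responders and 32 counts over the 6 ground controls. Against the 3 counts that a group at 0 allows, 0.0411 CPM over the responders, the pooled ground control level of 0.505 CPM was 12.3-fold higher. That ratio allows for counting error alone and not for the spread between mice, and Mir1896 was named for having no count in responders. No count was seen in ground control replicates 3 and 4 and non-responder replicate 6 either, and the gene overlaps an exon of Zscan26 on the other strand.

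In the non-responder ESE cohort edgeR called 0 of 105 tested members and 0 of 14107 genes (0%), with 0.660 as the smallest adjusted p of a member. DESeq2 called 0 members and 0.0217% of genes, and the likelihood ratio test 0 members and 0% of genes. At an unadjusted p under 0.05 stood 10 members (9.52%) against 6.96% of all genes, and 13 and 12 by the other tools. Snord37 came first. It had 0.234, 0.532 and 1.15 CPM in ground controls and 0.745, 1.203 and 2.26 CPM in non-responders, all 6 above the ground control median, with a log2 fold change of 1.18 (SE 0.41, adjusted p = 0.660). Eef2, in which it lies, is far more abundant than Snord37, and had -0.02 (SE 0.19) for all ESE mice.

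Mir93 had 0.745, 1.66 and 2.83 CPM in non-responders and a log2 fold change of 1.34 (SE 0.49, adjusted p = 0.660), in the same direction as in responders. Both contrasts share the ground controls. Scarna13 had 61.0, 108 and 145 CPM and 0.80 (SE 0.30), and Mir6993 2.05 (SE 0.82). Mir5123 had 2.61, 9.01 and 14.1 CPM, with 5 of 6 non-responders above every ground control. On the lower side were Mir1191b, in the transcription factor gene Nfic, with -1.66 (SE 0.66), Mir6989 with -1.45 (SE 0.62) and Mir22hg with -0.61 (SE 0.26). The record of Mir6989 is 5 short pieces, 52 bases in all, spread over 349771 bases, and its reads are uncertain. Mir1191b had 28 counts over the 6 non-responders and 64 over the 6 ground controls.

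Responders and non-responders were not told apart by any member. EdgeR called 0 of 105 members and 0% of genes, DESeq2 0 members and 0.0362% of genes, and the likelihood ratio test 0 members and 0% of genes. Only 3 members had an unadjusted p under 0.05 (2.86%, against 2.17% of all genes), and 3 and 4 by the other tools. Snord37 was 0.725, 0.694, 0.445 and 0.426 CPM in responders, each below the lowest non-responder of 0.745 CPM. Its log2 fold change was -1.22 (SE 0.46, adjusted p = 0.9999), resting on 39 counts in responders and 127 in non-responders. The lowest non-responder was replicate 1, a ribosome-rich library, where 0.745 CPM was 2 counts, so the full separation hangs on these. Mir8112 had -1.33 (SE 0.56) and Mir6991 -1.20 (SE 0.54). Mir203, which restrains p63 and marks differentiating keratinocytes, had 0.907, 3.96, 3.56 and 0.0609 CPM in responders and 0, 0.314 and 1.43 CPM in non-responders, and a log2 fold change of 1.89 (SE 0.98). Responder replicates 2 and 3 were high and replicates 1 and 4 within the range of the non-responders, and ground controls reached 3.28 CPM. Mir24-2 had 0.967, 2.58, 2.97 and 0.853 CPM in responders, with replicates 2 and 3 above every non-responder, and 0.88 (SE 0.55), or 0.54 without replicate 3.

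Between the arms, with exposure in the model, edgeR called 0 of 117 tested members and 0 of 14381 genes (0%). DESeq2 called 0 members and 0.892% of genes, and the likelihood ratio test 0 members and 0.688% of genes. At an unadjusted p under 0.05 stood 5 members (4.27%) against 9.94% of all genes, and 6 and 8 members by the other tools. Of the 117 members 44 were higher in the LAR arm and 73 lower (37.6% higher, against 55.2% of all genes), with a median log2 fold change of -0.12 against 0.04 over all genes.

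Snhg11 had the largest of these differences, at 0, 0.307 and 0.605 CPM in the ISS arm and 0.17, 0.294 and 7.18 CPM in the LAR arm, and a log2 fold change of 2.35 (SE 0.83, adjusted p = 0.412). The medians were alike. It rested on ground control replicate 6 with 3.19 CPM, non-responder replicate 4 with 7.18 CPM and non-responder replicate 6 with 3.17 CPM, all others being at or under 0.605 CPM. The same 3 libraries held the 3 highest levels of Mir145a, at 1.31, 5.24 and 1.99 CPM. Mir145a was named after its values were seen, and the share of all genes with these 3 libraries highest is not given here. Its host RNA Mir143hg did not share the pattern, with 13.1 CPM in responder replicate 2 and 12.4 CPM in non-responder replicate 6. A link between Snhg11 and Mir145a was not tested. Mir1191b had 0, 0.209 and 0.887 CPM in the ISS arm and 0.0852, 0.804 and 1.64 CPM in the LAR arm, with 1.38 (SE 0.48). Mir365-2 had 0.86 (SE 0.40), with 4 of 8 LAR libraries above every ISS library.

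Snora3, an H/ACA snoRNA in the ribosomal protein gene Rpl27a, had -1.45 (SE 0.56) and Scarna8, in the augmin subunit gene Haus6, -1.24 (SE 0.52). Scarna8 was 3.60 and 3.35 CPM in ground control replicate 3 and non-responder replicate 1, both ribosome-rich and of the ISS arm, and at most 1.41 CPM elsewhere, and the log2 fold change was -0.64 without the ribosome-rich libraries. Snora3 did not keep enough counts to be tested without them. Snord89, a box C/D snoRNA, had 0.495, 2.02 and 3.07 CPM in the ISS arm and 0, 1.01 and 1.67 CPM in the LAR arm, all 8 LAR libraries lying below the ISS median, and -0.91 (SE 0.44).

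The ESE effect was also compared between the arms. This fit was added after the data were seen. EdgeR called 0 of 117 members and 0 of 14381 genes (0%), and 7 members (5.98%) had an unadjusted p under 0.05 against 4.8% of all genes. Mir6516, in Snhg20, had a difference of the log2 fold changes (LAR minus ISS) of -2.37 (SE 0.75) and Snora81, in the translation factor gene Eif4a2, of -1.93 (SE 0.62). Mir22hg had -1.11 (SE 0.39). The smallest adjusted p was 0.999. Ground control replicate 5, of the LAR arm, had Mir6516 at 27.7 CPM against 2.90 to 10.1 CPM in the other ground controls. For Snora81 it had 6.70 CPM against 1.31 to 2.11 CPM. Each arm held 3 ground controls, and this fit was not repeated without that library.

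With RIN in place of the arm, no member followed RNA integrity past the test. EdgeR called 0 of 84 members and 0 of 13577 genes (0%), and DESeq2 and the likelihood ratio test called 0 members and 0% of genes each. At an unadjusted p under 0.05 stood 6 members (7.14%) against 7.5% of all genes, and 6 and 8 by the other tools. The slopes were negative for 59 of 84 members, and for all 14 tested box H/ACA snoRNAs, and positive for 29.8% of members against 42.7% of all genes, with a median of -0.14 per RIN unit for members and -0.08 for all genes. The RIN of these libraries spans 1.2 to 2.7 only, and the RNA was broken throughout.

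Mir1907 had the steepest slope, -3.80 per RIN unit (SE 1.24, adjusted p = 0.605), with 3.48 CPM in non-responder replicate 4 at RIN 1.2 and 0 in ground control replicate 1 at RIN 2.7. It was 0 in the ribosome-rich ground control replicates 3 and 4 as well. Mir1907 lies in Trps1, whose own slope was -2.21 (SE 0.86, adjusted p = 0.629). Over 44 pairs, Pearson's r between the slopes of member and host was 0.63, and 30 pairs had the same sign. For the log2 fold changes of ESE mice against ground controls r was 0.17, with the same sign in 23 of 44. It was 0.07 for responders (26 of 57) and 0.36 for non-responders (32 of 57) against ground controls. Responders against non-responders gave 0.41 (37 of 57) and the arms 0.33 (45 of 65). Mir345 had -1.83 (SE 0.66), Mir6991 -1.74 (SE 0.73), Mir5123 -1.58 (SE 0.68) and Mir93 -1.48 (SE 0.66). Mir93 and Mir5123 lay higher where RIN was lower, with exposure in the model, and RIN was itself lower in ESE mice (1.66 ± 0.29, SD, n = 10) than in ground controls (2.05 ± 0.34, SD, n = 6). Snord96a, in the ribosomal scaffold gene Gnb2l1, had 1.70 (SE 0.76), and 4.89 CPM in ground control replicate 1. The slope was 0.84 without that library, the only one with a RIN above 2.1, and 2.60 without ground control replicate 2. Mir24-2 had 1.26 (SE 0.65) and Snhg20 0.60 (SE 0.33).

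**Figure D4:**
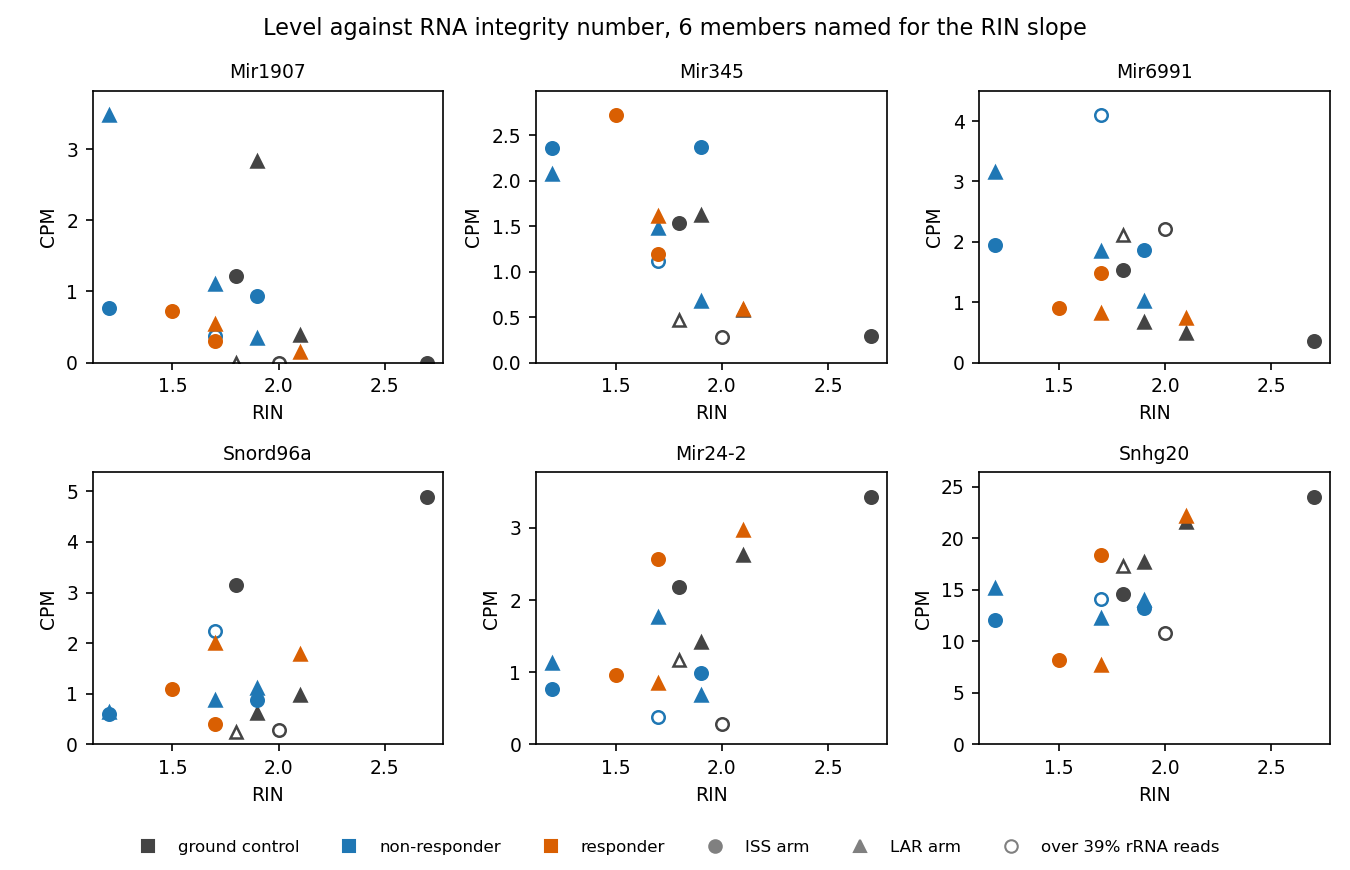
Levels (CPM) of the 6 members named for the slope on the RNA integrity number, 1 point per library against RIN, with colour for the group, shape for the arm and open symbols for the libraries with over 39% ribosomal reads. Mir1907 and Mir6991 are at their lowest, 0 and 0.365 CPM, in the library of RIN 2.7, and Snord96a, Mir24-2 and Snhg20 are at their highest there.

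Most of the small RNAs lay inside another gene. By the coordinates of the count table (mm10), 97 of 135 lay within a gene on the same strand, namely 22 of 25 box C/D snoRNAs, 17 of 18 box H/ACA snoRNAs, 4 of 6 scaRNAs and 54 of 86 microRNAs. Ribosomal protein genes, Eef2, Tpt1 or Gnb2l1 were the hosts of 19 and Snhg genes of 9. The translation factor genes Eif4a2 and Eif5, also hosts, are not in the 19. On the same strand 7 microRNAs overlapped an exon of another gene, 6 of them of their host (Mir26a-2 in Ctdsp2 and Mir3064 in Ddx5 among these), where reads of both cannot be separated, and 4 microRNAs overlapped an exon on the other strand.

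Per kilobase the member was above its host in 30 of the 91 pairs without such overlap, and the median ratio was 0.718. With each length grown by a read less 1 base it was above in 19 of 91, and the median ratio was 0.336. Most members thus had lower CPM per kilobase than their hosts on both scales. The capture baits were for exons, and their cover of these members is not given. The ratios therefore compare captured reads and not RNA levels alone. All 4 hosted scaRNAs were above their hosts on both scales. On recorded length Scarna13 had 420 times the level per kilobase of Snhg10, which itself had a mean of 4.94 counts per library. Snord17 had 31.7 times that of Snx5, Mir5123 13.02 times that of B4galt1, Snord15b 9.97 times and Snord15a 7.36 times that of Rps3. Mir93 had 0.686 times the level of Mcm7 and Snord37 0.0481 times that of Eef2. On the grown lengths the ratios were 367 for Scarna13, 22.8 for Snord17, 6.07 for Mir5123, 6.24 for Snord15b, 4.64 for Snord15a and 0.0173 for Snord37. Reads that mapped to several places had been left out, so hosts with many processed copies, such as Tpt1, Rpl32 and Rpl27a, have uncertain counts.

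The levels of member and host were set against each other over the 16 libraries in the 24 pairs with a mean of at least 20 counts for the member. The median Pearson's r was 0.07, with 13 of 24 above 0. No Pearson's r passed after adjustment over the 24 pairs (smallest adjusted permutation p = 0.0683), and 4 values of Spearman's rho did, 3 of which are given here. Snora43 and Snhg7 had r = 0.70 (permutation p = 0.00364, adjusted 0.0683) and rho = 0.71 (permutation p = 0.00264, adjusted 0.0245), and r was 0.69 without the 2 farthest libraries and 0.96 over the 13 libraries that were not ribosome-rich. Mir3109 and Anxa2 had rho = 0.73 (permutation p = 0.00205, adjusted 0.0245) with r = 0.58 (permutation p = 0.0178, adjusted 0.0726), r = 0.47 without the 2 farthest libraries and 0.59 over the 13.

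Snora31 and its host Tpt1 were negatively related by rank, while Pearson's r did not pass. The counts of Tpt1 are uncertain, since reads that mapped to several places had been left out. Snora31 and Tpt1 had rho = -0.70 (permutation p = 0.00306, adjusted 0.0245) with r = -0.62 (permutation p = 0.0114, adjusted 0.0683), r = -0.51 without the 2 farthest libraries and -0.73 over the 13. The abundant snoRNAs of Rps3 had r = 0.03 and rho = -0.07 (Snord15b) and r = -0.31 and rho = -0.36 (Snord15a), with permutation p of 0.903 and 0.799, and of 0.242 and 0.169. Mir93 and Mcm7 had r = 0.57 (permutation p = 0.0212, adjusted 0.0726) and rho = 0.53 (permutation p = 0.0358, adjusted 0.143).

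**Figure D5:**
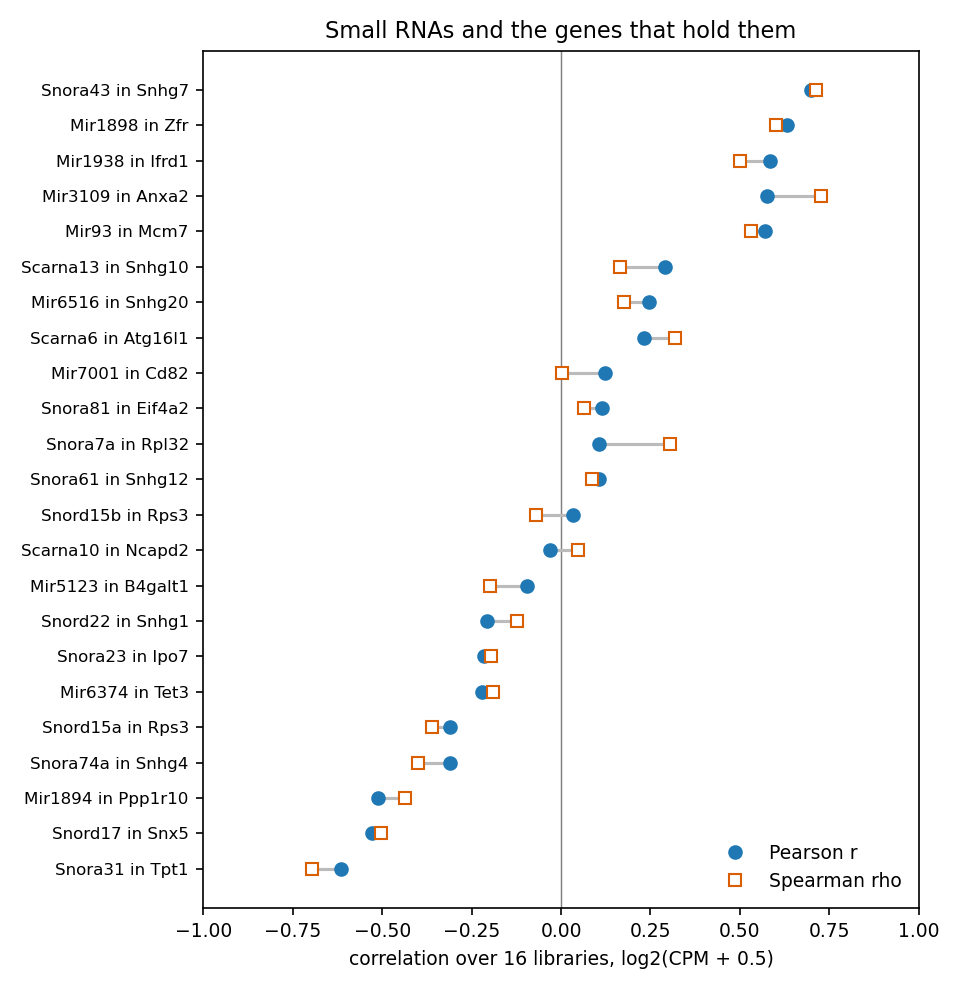
Pearson's r (filled circles) and Spearman's rho (open squares) over 16 libraries between the log2 level of a small RNA and of the gene that holds it, for 23 pairs with a mean of at least 20 counts. Pearson's r runs from -0.62 to 0.70 in the pairs drawn, with Snora43 in Snhg7 at the top and Snora31 in Tpt1 at the bottom.

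The genes that bind, assemble and process these RNAs gave no call either, in edgeR's test of ESE mice against ground controls. Of all genes tested there, 45.3% were higher in ESE mice and 7.86% stood at an unadjusted p under 0.05 in either direction. Of 5 proteins of the box C/D particle 4 were measured, all with the higher mean in ESE mice, 1 of them at an unadjusted p under 0.05, Nop58 with a log2 fold change of 0.68 (SE 0.30, adjusted p = 0.624). Nop56 had 0.45 (SE 0.27). Of 4 proteins of the box H/ACA particle 3 were higher, with 0.55 (SE 0.26) for the pseudouridine synthase Dkc1 and -0.55 (SE 0.39) for Nop10. Of 13 genes of particle assembly and the Cajal body 11 were higher, 2 at an unadjusted p under 0.05, Naf1 with 0.59 (SE 0.26) and Ruvbl1 with 0.56 (SE 0.26). Of 14 genes of RNA polymerase I and pre-rRNA processing 11 were higher, Polr1e with 0.57 (SE 0.24) and Npm1 with 0.78 (SE 0.33). The medians of these 4 lists were 0.47, 0.15, 0.27 and 0.22, beside -0.04 over all genes.

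The microRNA machinery and nonsense-mediated decay, which removes many spliced Snhg RNAs, held no gene at an unadjusted p under 0.05 in the same test. Of 20 measured genes of microRNA processing 14 were higher in ESE mice, with a median of 0.07. Dis3l2, which degrades the precursor of let-7, had 0.31 (SE 0.15) and the Dicer partner Tarbp2 -0.37 (SE 0.19). Of 10 genes of nonsense-mediated decay 5 were higher, with a median of -0.03, and Upf3b had -0.16 (SE 0.14) and Smg9 0.13 (SE 0.17). In responders, 1 gene each of the box C/D, assembly and polymerase I lists stood at an unadjusted p under 0.05 on the higher side, and in non-responders 1 of the box H/ACA list on the lower side. Between the arms 1 assembly gene was lower and 1 polymerase I gene higher in the LAR arm at that level. None of these lists held a gene past the adjusted threshold in any of the 6 comparisons.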

How the data were processed

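RNA of 16 mouse skin samples, each a separate animal, was sequenced after exon capture. The deposited raw counts per gene were made by the authors with STAR (genome build mm10) and featureCounts, leaving out low quality reads and reads mapped to several places; the strand setting is not given in the sources used here. The RNA integrity score (RIN) and the percent values (DV200, shares of mapped reads) were deposited by the authors as library statistics. Deposited log2 FPKM values and the authors' comparison columns (fold changes and p-values) were not used, and no arm was taken from sample order.

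Counts were tested with edgeR 4.0.16 (R 4.3.3, limma 3.58.1): TMM scaling, filterByExpr, robust quasi-likelihood F test, and Benjamini-Hochberg adjustment over all genes tested, at 0.05. The fits were ESE against ground control, the 3 groups, arm with exposure, and RIN with exposure. DESeq2 1.42.0 and edgeR's likelihood ratio test, which the study used, were alternatives. Levels are CPM, that is counts scaled by TMM to one library size. Host pairs used log2(CPM + 0.5), a mean count of at least 20 and 100000 permutations; 1 pair is not reported here. Python 3.11.15, numpy 2.4.6, pandas 2.3.3, scipy 1.17.1, Biopython 1.88 and matplotlib 3.10.9 were used. Scripts were tested on simulated data.

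Alternatives were other size factors, other filters, Rn45s left out, each library left out, arm, RIN or DV200 as terms, and each arm alone. Leaving out the ribosome-rich libraries, the ribosomal share as a covariate, the test of exposure by arm and lengths grown by a read were added after the data were seen. Members and lists were chosen with earlier results of these data known. Named were, in each comparison, the 3 higher and 3 lower members of smallest p, the 3 most abundant of each class, the 5 highest per kilobase, members at 0 in a group, their hosts, and 2 genes of each list. Mir5123, Mir145a, Mir143hg, Mir200a, Mir200b, Snora43, Snora81 and Snhg8 were named after their values were seen. Floors cover counting error only.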

Additional observations from a re-analysis of the deposited data

Results flagged for a closer look

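In 15 of 150 groups of 4 to 6 samples checked, 1 sample stood far from the rest by the size of its gap, where chance gives about 1 in 20, and 8 of the 15 were ribosome-rich libraries. Non-responder replicate 1 gave 7 of these 8. It had a microRNA sum of 25504 CPM against 2189 to 5899 CPM in the other non-responders, and Mir6236 at 25413 CPM. It also had Scarna6 at 75.6 CPM, Scarna8 at 3.35 CPM, Snora3 at 1.49 CPM and Snord96a at 2.23 CPM, each above the others, and Mir6993 at 0 CPM, below the others. Ground control replicate 3 had Scarna8 at 3.60 CPM.

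Ground control replicate 5 had Mir6516 at 27.7 CPM, against 2.90 to 10.1 CPM in the other ground controls, and Snora44 at 3.88 CPM, against 0.554 to 1.61 CPM. Ground control replicate 6, the library of the highest muscle marker sum, had Snhg11 at 3.19 CPM, against 0 to 0.438 CPM. Non-responder replicate 4 had Mir1907 at 3.48 CPM, against 0.341 to 1.11 CPM. In responders, Mir429 was 0.242 CPM in replicate 1, against 0.731 to 0.817 CPM. Responder replicate 2 had Mir6989 at 8.03 CPM, against 0.487 to 1.56 CPM, and Mir99ahg at 7.23 CPM, against 12.2 to 12.5 CPM.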

How the results depend on the processing

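The member results checked were those of the 3 higher and 3 lower members of smallest p in each comparison. They were picked from these same data, and most alternatives leave out 1 library, so they are no independent check. Under an alternative 907 of these values kept their sign and 2 changed it. Mir22hg in ESE mice against ground controls was 0.064 in the ISS arm alone, and Mir6989 in responders against non-responders was -0.34 without responder replicate 2, the lowest of its values over left-out libraries, of which 1.45 was the highest. Mir93 and Scarna13 in non-responders were 0.71 and 0.47 with RIN as a covariate. With the ribosomal share as a covariate the arm differences of Snhg11, Snora3 and Scarna8 were 1.51, -0.93 and -0.38. The RIN slope of Snhg20 was 0.39 without responder replicate 3. No member was called by any tool or with any library left out. Of the class sums, host counts and calls, 313 stayed, 16 class sums moved, and the members above their host per kilobase moved from 30 to 19 with lengths grown by a read less 1 base. CPM without Rn45s gave, in ground controls, non-responders and responders, 241, 297 and 292 for Snhg, 76.3, 84.3 and 73.04 for box H/ACA, 72.2, 83.4 and 93.1 for microRNA host RNAs, 229, 299.996 and 243 for scaRNAs, and 138, 146 and 146 for microRNAs without Mir6236; the scale itself differs there, since a large gene leaves the total. CPM over all deposited counts with no TMM gave 61.96 for box H/ACA in non-responders. With each library left out, the box C/D mean ran from 267 to 389 in ground controls, 307 to 405 in non-responders and 246 to 423 in responders. The median SE of members in ESE mice against ground controls was 0.42 on the log2 scale and that of all genes 0.28, and 69 of 153 had too few counts to be tested. No paired analysis was possible because the labels give the groups no shared replicate numbers.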

Other observations

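In 5 of the 25 members with a mean of at least 100 counts (20%), namely Snhg1, Snhg4, Snhg5, Snhg17 and Mir17hg, the same 4 libraries held the 4 highest levels. These were non-responder replicates 2 and 3 and responder replicates 1 and 4. The same held for 340 of all 9340 genes of that depth (3.64%). Their summed skin markers were the 4 lowest, at 2842 to 4618 CPM, with 4906 CPM in the next library. This was described after the data were seen and was not tested.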
